A study of Homo sapiens and Mus musculus with 12 samples.

Results

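The colony-stimulating factor genes CSF1, CSF2 and CSF3 were followed in 2 breast cancer cell lines, together with the mouse genes of the same symbol, Csf1, Csf2 and Csf3. These 6 genes are among 111406 gene identifiers in the count tables, and all of them passed the filter on low counts, as 3 of the 14610 genes tested in MDA-MB-231 and 3 of the 13286 tested in 4T1. They were chosen by their measured change with ponatinib, as myeloid growth factors that moved in different directions, so their differences between ponatinib and DMSO are given as a description, with no test.

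MDA-MB-231 derives from human triple-negative breast cancer and 4T1 from a mammary carcinoma of the mouse, and both are given as genotype WT. Cells were treated for 24 h with 1 µmol/L ponatinib, which inhibits several tyrosine kinases, or with the solvent DMSO alone, and 3 RNA-seq libraries were analysed in each of the 4 groups, 12 in all. Total counts per library were 15012884 to 17301760 for MDA-MB-231, against 17800675 to 18951493 for 4T1. The labels do not say whether libraries of a group came from separate cultures, so the p-values of other genes measure the spread between these libraries, which may be technical.

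Colony-stimulating factors are secreted cytokines that keep myeloid cells alive and drive their proliferation and maturation. CSF1 (M-CSF) acts on monocytes and macrophages through the receptor tyrosine kinase CSF1R. CSF2 (GM-CSF) acts on granulocytes, macrophages and dendritic cells through CSF2RA and the shared chain CSF2RB, and CSF3 (G-CSF) acts on the neutrophil lineage through CSF3R. Tumor cells can secrete all of them, and CSF2 and CSF3 in particular are known for their role in expanding myeloid-derived suppressor cells. The CSF2 and CSF3 messages are classic examples of short-lived mRNAs with AU-rich elements, whose transcription is induced through NF-κB, AP-1, ETS and NFAT factors. CSF1 is made as secreted glycoprotein, proteoglycan and membrane-bound forms.

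The promoter of human CSF2 is shown because CSF2 was the only 1 of the 3 human genes that matched the promoter table used. It is the RefSeq sequence of GRCh38.p14, plus strand, at chr5:132073539-132073788, the 250 bases that end just before the transcription start. Capitals mark, from left to right, the single match to TTCNNNGAA, the core of STAT sites, and the single match to GAGATTCC, an element known from cytokine promoters.
CSF2: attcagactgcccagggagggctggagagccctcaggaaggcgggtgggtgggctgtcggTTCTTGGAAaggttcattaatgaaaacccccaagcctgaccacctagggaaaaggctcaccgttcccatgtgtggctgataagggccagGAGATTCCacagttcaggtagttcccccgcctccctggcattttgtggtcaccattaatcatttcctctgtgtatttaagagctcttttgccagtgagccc

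Both strands were searched, and positions are counted back from the transcription start. The STAT match begins at position -190, where the degenerate pattern is met on both strands, and 6.57% of 35114 human promoter windows of this length hold such a match. The cytokine element begins at position -101, on the plus strand, and 0.735% of the windows hold it. The window has no match to the NF-κB consensus (held by 5.21% of windows), to the AP-1 core TGANTCA (6.57%), to the C/EBP core TTNNGNAA (33.2%), to the SP1 box GGGCGG (42.6%) or to TATAAA (10.7%). A match is a match of letters and not a measured site, and a window without a match to these patterns can still hold a variant site.

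CSF1, the macrophage growth factor, was higher with ponatinib in both lines. In MDA-MB-231 (ENSG00000184371, hg38 chr1:109910242-109930992, plus strand), the DMSO libraries held 66.3, 69.9 and 70.8 CPM (counts scaled to a common library total, adjusted by TMM) and the ponatinib libraries 391, 393 and 405 CPM. The groups lie far apart, and the replicates of each differ by little: the coefficient of variation was 3.41% with DMSO and 1.97% with ponatinib. The means were 69.0 ± 2.35 and 397 ± 7.83 CPM (SD, n = 3 each), a ratio of 5.75 and a log2 fold change of 2.52 (standard error 0.07). From the highest value down, this change ranked 208 among the 14610 genes tested.

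In 4T1, Csf1 (ENSMUSG00000014599, GRCm39 chr3:107648364-107667806, minus strand) started at a higher level and was higher with ponatinib by a smaller factor. Its DMSO libraries held 522, 530 and 492 CPM, and its ponatinib libraries 1045, 963 and 977 CPM. No ponatinib library came near the DMSO range. From 515 ± 20.2 to 995 ± 43.6 CPM (SD, n = 3 each), the ratio was 1.93 and the log2 fold change 0.95 (standard error 0.08), which ranked 1411 from the top among 13286 genes.

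CSF2, the granulocyte-macrophage factor, was lower with ponatinib in both lines, by much the same factor. In MDA-MB-231 (ENSG00000164400, hg38 chr5:132073789-132076170, plus strand), the DMSO libraries held 12.6, 9.26 and 8.49 CPM, from 190, 143 and 135 counts. The ponatinib libraries held 1.20, 1.47 and 0.712 CPM, from 19, 23 and 13 counts. DMSO replicate 1 stands above the other two, and even the lowest DMSO library is far above the highest ponatinib library. The means were 10.1 ± 2.18 and 1.13 ± 0.382 CPM (SD, n = 3 each), so that the level was 8.99-fold lower, and the log2 fold change was -3.18 (standard error 0.26). Counting error alone gives a 95% interval of 6.45 to 11.5 for the fold scaled by total counts, without TMM. It was computed from the summed counts (468 and 55), which were treated as independent molecules although PCR copies are not. By same-numbered replicates the log2 ratio was -3.39, -2.66 and -3.58, the widest scatter in relation to its size of the 6 genes.

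In 4T1, Csf2 (ENSMUSG00000018916, GRCm39 chr11:54138097-54140493, minus strand) rested on more reads. The DMSO libraries held 80.6, 70.4 and 77.6 CPM and the ponatinib libraries 9.97, 9.45 and 7.75 CPM. All libraries of a group lie close together here, and the groups do not overlap. The level went from 76.2 ± 5.28 to 9.06 ± 1.16 CPM (SD, n = 3 each), 8.41-fold lower, with a log2 fold change of -3.07 (standard error 0.11).

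CSF3, the neutrophil factor, was lower with ponatinib in both lines, and in MDA-MB-231 by the largest factor of the 3. This gene (ENSG00000108342, hg38 chr17:40015361-40017813, plus strand) had 32.0, 29.1 and 31.1 CPM in the DMSO libraries, from 483, 449 and 495 counts, and 1.07, 0.573 and 0.602 CPM in the ponatinib libraries, from 17, 9 and 11 counts. Every ponatinib library was thus close to the lower end of what these libraries measure, and ponatinib replicate 1 held the most reads of the 3. The means were 30.7 ± 1.52 and 0.749 ± 0.280 CPM (SD, n = 3 each), 41.0-fold lower. The counting interval was 28.0 to 55.2 for the fold scaled by total counts, without TMM. The log2 fold change of -5.36 (standard error 0.19) was number 4 from the lowest of all genes tested in this line, and it was -5.69 without ponatinib replicate 1.

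In 4T1, Csf3 (ENSMUSG00000038067, GRCm39 chr11:98592089-98594458, plus strand) had 15.7, 12.1 and 16.2 CPM with DMSO and 3.78, 2.69 and 3.42 CPM with ponatinib. The DMSO group was led by replicates 1 and 3, and it stayed clear of the ponatinib group. Means of 14.7 ± 2.22 and 3.30 ± 0.558 CPM (SD, n = 3 each) made it 4.45-fold lower, with a log2 fold change of -2.15 (standard error 0.17). The counting interval was 3.50 to 4.84 for the fold scaled by total counts, without TMM.

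**Figure D1:**
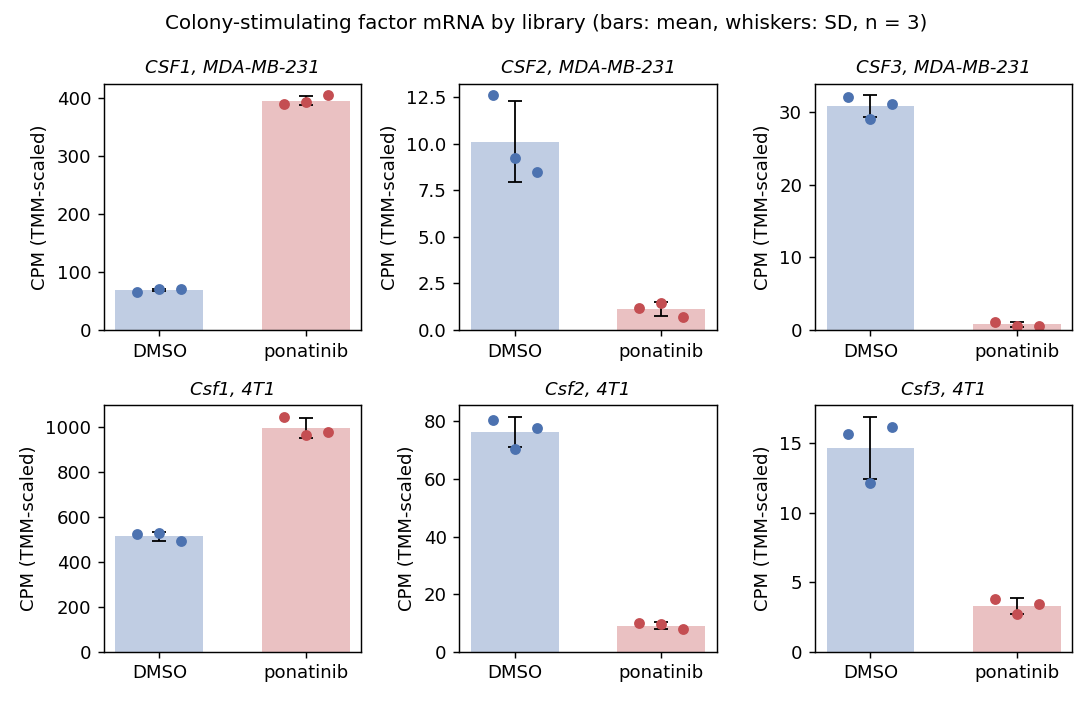
Level in CPM (TMM-scaled, linear axes that start at 0 and differ between panels) of each colony-stimulating factor gene in the 12 libraries; dots are libraries, bars group means and whiskers the SD (n = 3). CSF1 and Csf1 are higher with ponatinib and the other 4 genes are lower, with no overlap between groups in any panel.

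For none of the 6 genes did the ponatinib libraries overlap the DMSO libraries in CPM. Of all tested genes, 60.4% of those in the human line and 63.4% of those in the mouse line were likewise apart, so separation as such is common in these data. Calls by edgeR (quasi-likelihood test, adjusted p-value under 0.05) were made for 26.8% of MDA-MB-231 genes as lower and 27.2% as higher, and for 29.4% and 29.5% of 4T1 genes. The members are not read against these shares, because the same comparison was used to choose them. In bulk RNA of a cell line, a lower level in every cell and fewer cells that express the gene cannot be told apart.

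For a comparison between genes, levels were set per kilobase of exon (RPKM, CPM divided by the length of all exons of the gene merged). In MDA-MB-231 with DMSO, CSF3 stood at 13.9 ± 0.684, CSF1 at 13.2 ± 0.449 and CSF2 at 12.8 ± 2.77 RPKM (SD, n = 3 each). Their ranges overlap, at 13.1 to 14.4, 12.7 to 13.5 and 10.8 to 16.0 RPKM, so no order of the 3 levels can be given. Each was above about 3 in 4 of the tested genes with a length, namely 76.7%, 75.8% and 75.3% of them. With ponatinib the order was clear, CSF1 at 75.7 ± 1.49, CSF2 at 1.43 ± 0.485 and CSF3 at 0.338 ± 0.126 RPKM, without overlap.

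4T1 cells with DMSO held Csf2 at 95.2 ± 6.60 and Csf1 at 87.6 ± 3.44 RPKM (SD, n = 3 each), whose ranges of 88.0 to 101 and 83.7 to 90.2 RPKM overlap, and Csf3 well below both at 10.4 ± 1.57 RPKM. Csf2 and Csf1 were above 97.2% and 96.8% of tested genes, Csf3 above 70.5%. Under ponatinib the order was Csf1 at 169 ± 7.42, Csf2 at 11.3 ± 1.45 and Csf3 at 2.33 ± 0.394 RPKM, again without overlap. The length assumed matters for the DMSO order: per kilobase of the longest transcript, CSF1, CSF3 and Csf1 stood at 17.3, 18.4 and 123 RPKM with DMSO, which puts CSF2 below the other two in MDA-MB-231 and Csf1 above Csf2 in 4T1.

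Seen as shares of the summed RPKM of the 3 genes, which restate the differences above, CSF1 or Csf1 made up most of the sum with ponatinib. Csf2 still stood at 11.3 RPKM with ponatinib in 4T1. CSF1 made up 29.4% to 35.3% of the sum in the MDA-MB-231 DMSO libraries and 97.3% to 98.5% in the ponatinib libraries. CSF2 went from 28.1% to 37.1% down to 1.15% to 2.41%, and CSF3 from 33.5% to 36.6% down to 0.335% to 0.631%. In 4T1, Csf1 went from 43.6% to 48.3% up to 92.2% to 93.2%, Csf2 from 47.1% to 50.5% down to 5.43% to 6.66%, and Csf3 from 4.58% to 5.95% down to 1.07% to 1.38%. With the longest transcript as the length, the mean share of CSF1 was 35.7% and 98.1% in MDA-MB-231, and that of Csf1 was 53.8% and 94.6% in 4T1.

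**Figure D2:**
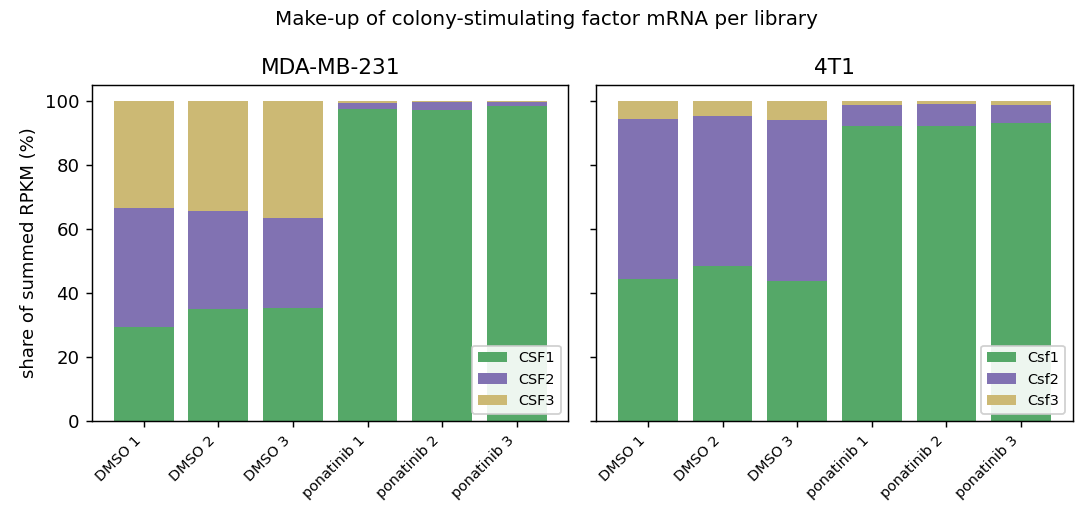
Share (%) of each gene in the summed RPKM of the 3 colony-stimulating factors, for every library of both lines. The 3 genes take similar shares in the MDA-MB-231 DMSO libraries, Csf3 takes 4.58% to 5.95% in the 4T1 DMSO libraries, and CSF1 or Csf1 takes 92.2% or more in every ponatinib library.

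The ratio of CSF1 to CSF2, both per kilobase, shows the same shift library by library. In MDA-MB-231 it was 0.792 to 1.25 with DMSO and 40.4 to 85.7 with ponatinib. For 4T1 the same ratio was 0.863 to 1.03 with DMSO and 13.9 to 17.2 with ponatinib. For CSF1 over CSF3 the ratio went from 0.877 to 1.02 up to 154 to 291 in the human line and from 7.32 to 10.5 up to 66.5 to 86.4 in the mouse line.

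Between the lines, the response of CSF2 was the most alike. In a joint fit of both lines over 12494 genes of shared symbol, the ponatinib effect in MDA-MB-231 minus that in 4T1 was -0.04 on the log2 scale for CSF2 (standard error 0.25), 1.64 for CSF1 (standard error 0.10) and -3.13 for CSF3 (standard error 0.30). These differences are descriptions too. That of CSF2 changed sign, to 0.14 and 0.22, when DMSO replicate 1 or ponatinib replicate 3 of MDA-MB-231 was left out.

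The 3′ untranslated regions set the members apart by a property the choice did not use. The pentamer ATTTA, the core of AU-rich elements that speed mRNA decay, occurs 8 times in the 318 bases of the CSF2 3′ UTR (canonical transcript), 7 times in 854 bases of CSF3 and 4 times in 2154 bases of CSF1. Per kilobase these are 25.2, 8.20 and 1.86 pentamers, where the median of 11993 tested genes with a 3′ UTR of at least 100 bases was 1.79. Only 0.0167% of those genes were as dense as CSF2 and 1.60% as dense as CSF3, whereas 48.8% were as dense as CSF1. The mouse genes had the same order, with 28.4 per kilobase for Csf2 (9 pentamers in 317 bases), 8.93 for Csf3 (6 in 672) and 1.89 for Csf1 (4 in 2111), against a median of 1.38 over 11298 genes. CSF2 and CSF3, lower with ponatinib, are thus rich in the pentamer in both species, and CSF1, which was higher, is near the median. The directions were part of the choice, and the mouse genes are counterparts of the human ones. With 3 genes in each species this is a description. Whether genes dense in the pentamer were lower in general was not tested.

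Among 9843 genes tested in both lines and paired by symbol, the genes whose values moved most like each member over the 12 libraries were listed by the root mean square difference of log2 CPM, taken after subtracting each line's DMSO mean. Nearest to CSF1 were PLLP (0.151), NEK8 (0.155) and PNPLA7 (0.163). PLLP, a membrane protein of myelin, had log2 fold changes of 2.49 and 0.84 in MDA-MB-231 and 4T1, beside 2.52 and 0.95 for CSF1. For CSF2 they were the cytokine IL24 (0.244), the prostaglandin synthase PTGS2 (0.334) and the metalloproteinase ADAMTS1 (0.445). PTGS2 went from 41.8 to 3.80 CPM in MDA-MB-231 and from 1094 to 147 CPM in 4T1. IL24 went from 16.5 to 1.66 CPM in MDA-MB-231, but its 4T1 values were as low as 1.09 and 0.0172 CPM (log2 fold change -5.51, beside -3.07 for Csf2), and with a prior count of 0.5 in place of 2 its place among the 3 nearest went to IL1A. CSF3 was followed by the hyaluronan synthase HAS2 (0.280), the cytokine IL11 (0.762) and the ETS factor ETV4 (0.884), of which HAS2 is the close match, with log2 fold changes of -5.84 and -2.0 beside -5.36 and -2.15 for CSF3. By Pearson's correlation in place of the difference, 0, 1 and 1 of these 3 genes were again named for CSF1, CSF2 and CSF3.

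Genes beside the members on the chromosome were described to see whether the loci as a whole moved. Within 250 kb of the start of each member, 5 protein-coding genes were tested around CSF1 in MDA-MB-231 (1 lower, 2 higher), 3 around CSF2 (2 lower) and 10 around CSF3 (2 lower, 4 higher). In 4T1 the counts were 6 around Csf1 (4 higher), 4 around Csf2 (2 lower, 2 higher) and 11 around Csf3 (5 lower, 1 higher). Summed over the members, 5 were lower and 6 higher in the human line and 7 and 7 in the mouse line, which is near the shares over all genes (26.8% and 27.2%, 29.4% and 29.5%). Beside CSF3, which was 41.0-fold lower, the proteasome subunit gene PSMD3 fell by 0.61 (log2; adjusted p = 2.5e-05, edgeR), while the nuclear receptor genes THRA and NR1D1 rose by 0.76 and 0.46 (adjusted p = 4.58e-05 and 0.00446, edgeR). In 4T1, Psmd3 had a log2 fold change of 0.10 (adjusted p = 0.272, edgeR), Thra rose by 0.79 (adjusted p = 5.06e-06) and Nr1d1 fell by 0.39 (adjusted p = 0.000293, edgeR).

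IL3, the sister cytokine gene of CSF2, starts 13.1 kb from it and Il3 17.6 kb from Csf2. Both had 0 counts in every library, which allows up to 3 counts per group, or 0.0625 CPM in the MDA-MB-231 DMSO group and 0.0534 CPM in the 4T1 DMSO group. Around CSF2 the carnitine transporter gene SLC22A4 fell by 1.52 in MDA-MB-231 (log2; adjusted p = 1.24e-05, edgeR), whereas Slc22a4 rose by 1.58 in 4T1 (adjusted p = 2e-05, edgeR). The higher genes near Csf1 were Eps8l3, with a log2 fold change of 1.71, and the glutathione transferases Gstm2 (1.94), Gstm5 (0.43) and Gstm7 (2.78, from 19 and 141 counts), paralogs whose reads the counting could have split, so that their values are uncertain. Near CSF1, GSTM2 rose by 1.85, GSTM3 fell by 0.39 and AHCYL1 rose by 0.37 (log2, edgeR). The counts of neighbours depended on scaling: with total counts in place of TMM, 3 and not 5 were lower in MDA-MB-231 and 12 and not 7 were higher in 4T1. Calls over all genes shifted the same way, from 3918 to 3097 lower in MDA-MB-231 and from 3925 to 4854 higher in 4T1. In MDA-MB-231 the count of lower neighbours was also 3 without DMSO replicate 2, DMSO replicate 3 or ponatinib replicate 2.

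**Figure D3:**
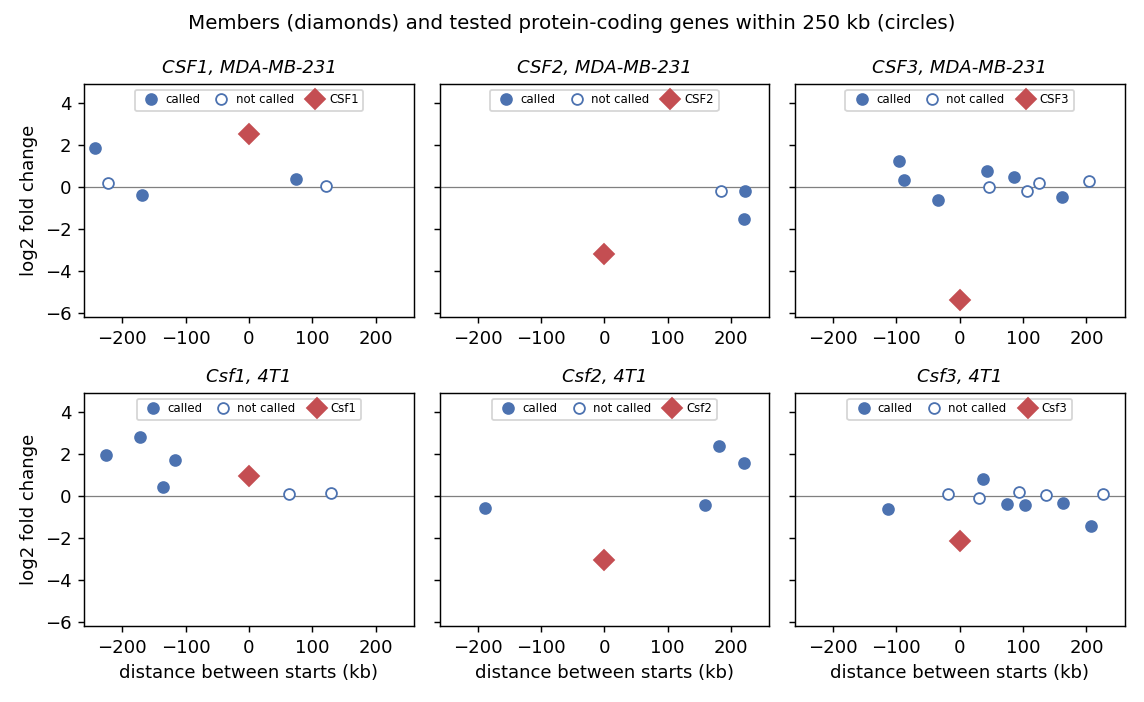
Log2 fold change (ponatinib over DMSO) of each member (diamond) and of the tested protein-coding genes within 250 kb (circles, filled where called at an adjusted p-value under 0.05), against the distance between gene starts in kb, negative upstream of the member. CSF2, Csf2, CSF3 and Csf3 lie below all of their tested neighbours, CSF1 lies above all of its own, and Csf1 lies below 3 neighbours.

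Receptors for the factors were nearly absent, apart from CSF2RA. In MDA-MB-231, CSF2RA, the ligand-specific chain of the CSF2 receptor, rose from 17.3 ± 0.973 to 30.9 ± 1.92 CPM (SD, n = 3 each; log2 fold change 0.84, standard error 0.10, adjusted p = 2.86e-05, edgeR). CSF2RB, the signaling chain that it needs, had 2 counts summed over DMSO and 1 over ponatinib libraries, and CSF3R had 1 and 0. CSF1R rose from 34 to 89 counts, or 0.735 ± 0.208 to 1.80 ± 0.375 CPM (SD, n = 3 each; log2 fold change 1.28, standard error 0.33, adjusted p = 0.0066, edgeR), which remains a low level. None of the 5 receptor genes of 4T1 passed the filter: no library held more than 3 counts of Csf1r, Csf2ra, Csf2rb, Csf2rb2 or Csf3r, and Csf3r had 0 in all of them.

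Myeloid cells, which carry these receptors, left little trace. Of 18 myeloid marker genes in MDA-MB-231, 8 had 0 counts in every library, among them PTPRC, LYZ, AIF1, TYROBP, S100A8 and S100A9, and the summed level was 14.5 to 15.7 CPM with DMSO and 16.3 to 17.8 CPM with ponatinib, mostly ADGRE1. In 4T1 the 20 markers summed to 479 to 526 CPM with DMSO and 254 to 273 CPM with ponatinib. Nearly all of that was Cd14 (237 and 144 CPM) and Mrc1 (259 and 115 CPM), whereas Itgam, Tyrobp and Adgre1 were at 0 and Ptprc had 6 and 2 counts. As a check of the labelled epithelial cell type, KRT8 was at 890 and 1638 CPM in MDA-MB-231, where CDH1 was at 0 in all DMSO libraries, and Cdh1 was at 830 and 909 CPM in 4T1.

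Of the 10 fibroblast markers, only COL1A1 and PDGFRB were tested in MDA-MB-231. Both rose (27.8 to 74.9 and 0.451 to 9.24 CPM, adjusted p = 3.37e-07 and 3.97e-07, edgeR), where 27.2% of all tested genes were higher. DCN, LUM, FAP and THY1 had at most 3 counts in a group there. The summed level of the 10 markers was 26.5 to 31.5 CPM with DMSO and 81.7 to 88.1 CPM with ponatinib, and 8.39 to 9.30 and 14.8 to 17.9 CPM in 4T1. Of the 4 fibroblast markers tested in 4T1, 2 were lower and 2 higher, beside 29.4% and 29.5% of all tested genes. Among the epithelial markers, MDA-MB-231 had 6 higher and 0 lower genes of 9 tested, beside 27.2% and 26.8% of all tested genes. In 4T1, 1 epithelial marker was higher and 4 were lower of 9 tested, beside 29.5% and 29.4%. The part of these markers in the members' differences was not tested.

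Other haematopoietic cytokines fell more often than they rose. In MDA-MB-231, 7 of the 14 tested genes on a list of 25 were lower and 4 higher, where 26.8% and 27.2% of all tested genes were, and in 4T1 it was 7 lower and 2 higher of 11 tested (29.4% and 29.5% of all genes). The median log2 fold changes were -0.47 and -0.38, beside 0.02 and 0.00 over all tested genes. IL1B, an inflammatory cytokine that induces CSF2 and CSF3 in many cells, fell from 321 ± 10.2 to 8.21 ± 0.333 CPM in MDA-MB-231 (SD, n = 3 each; log2 -5.29, adjusted p = 1.52e-11, edgeR). In 4T1, Il1b did not pass the filter. A part of IL1B in the changes of CSF2 and CSF3 was not tested. IL11, which supports megakaryocytes, fell by 3.85 in MDA-MB-231 and the cardiotrophin gene CTF1 rose by 0.75 there (adjusted p = 2.22e-09 and 0.000979, edgeR). Il11 was also called lower in 4T1 (log2 -2.49, from 1.30 to 0.224 CPM), and Ctf1 was not called there (0.87). In 4T1, Lif, which maintains stem cells, fell from 212 to 86.1 CPM and the monocyte chemokine gene Ccl2 rose from 121 to 329 CPM (log2 -1.30 and 1.44; adjusted p = 4.66e-09 and 1.63e-08, edgeR). LIF was also called lower in MDA-MB-231 (log2 -1.32). Il34, the second ligand of Csf1r, fell by 0.38 in 4T1 (adjusted p = 0.00298, edgeR), where Csf1 was higher. In MDA-MB-231, where CSF1 was also higher, IL34 was called higher, with a log2 fold change of 3.37 from few counts.

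Genes that carry receptor signals inside the cell were called about as often as all genes. MDA-MB-231 had 8 lower and 8 higher genes of 32 tested (25.0% each, beside 26.8% and 27.2%), and 4T1 had 9 lower and 10 higher of 31 (29.0% and 32.3%, beside 29.4% and 29.5%). With the replicate number as a block, 14 were lower in MDA-MB-231. STAT5A, a transcription factor that CSF2 and CSF3 receptors activate, rose by 0.71 in MDA-MB-231 and Stat5a by 1.81 in 4T1 (adjusted p = 2.44e-05 and 3.25e-08, edgeR), from 6.73 to 23.7 CPM in the latter. SOCS3, a feedback inhibitor of the CSF3 receptor, fell from 55.7 to 27.4 CPM in MDA-MB-231, and Socs2, a related inhibitor, from 28.1 to 13.5 CPM in 4T1 (log2 -1.02 and -1.05; adjusted p = 1.37e-06 and 2.06e-06, edgeR). Socs3 was also called lower in 4T1 (log2 -0.77), whereas SOCS2 was not called in MDA-MB-231 (-0.25). The adaptor gene GRB2 fell by 0.63 and the phospholipase gene PLCG2 rose by 0.83 in MDA-MB-231, while in 4T1 the kinase gene Pim1 fell by 0.79 (log2, edgeR). Grb2 and Plcg2 were called the same way in 4T1 (log2 -0.18 and 0.69), and PIM1 was called higher in MDA-MB-231 (0.37).

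Transcription factors and inhibitors known to act at the promoters of these genes were counted next. In MDA-MB-231, 12 of 39 tested were lower and 13 higher (30.8% and 33.3%, median 0.03), shares near the 26.8% and 27.2% of all genes, and in 4T1, 21 of 39 were lower and 8 higher (53.8% and 20.5%, median -0.31), beside 29.4% and 29.5%. A difference between the lines in these shares was not tested. The AP-1 subunit FOSL1 fell from 857 ± 77.5 to 130 ± 9.55 CPM in MDA-MB-231, and Fosl1 from 684 ± 47.9 to 222 ± 11.9 CPM in 4T1 (SD, n = 3 each; log2 -2.72 and -1.62; adjusted p = 2.73e-09 and 7.31e-10, edgeR). JUN, its partner, fell by 1.53 in MDA-MB-231 and Jun by 3.16 in 4T1 (adjusted p = 2.12e-08 and 7.42e-12, edgeR). FOS, another AP-1 subunit, rose by 2.38 in MDA-MB-231 (5.86 to 30.4 CPM; adjusted p = 1.35e-07, edgeR), and Fos in 4T1 had a log2 fold change of 0.12 (adjusted p = 0.377, edgeR). The AP-1 gene Fosb fell by 1.85 in 4T1 whereas FOSB rose by 1.03 in MDA-MB-231.

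Of the NF-κB genes, NFKB1 fell by 0.72 in MDA-MB-231 (adjusted p = 1.72e-05, edgeR), and Nfkb1 had a log2 fold change of 0.01 in 4T1 (adjusted p = 0.942). RELA fell by 0.24 and Rela by 0.31 (adjusted p = 0.0152 and 0.00179, edgeR), the former not past the threshold with total counts (adjusted p = 0.0956) or without ponatinib replicate 2 (adjusted p = 0.0504). The inhibitor gene NFKBIA rose by 0.44 and Nfkbia by 0.80 (adjusted p = 0.000296 and 4.22e-06, edgeR). TNFAIP3, a deubiquitinase that dampens NF-κB, fell by 1.54 in MDA-MB-231, and in 4T1 the inhibitor gene Nfkbie rose by 1.61 and the NFAT gene Nfatc2 by 1.14 (log2, edgeR). ELF3, an epithelial ETS factor, went from 3 counts in the DMSO libraries to 628 with ponatinib in MDA-MB-231. CEBPB and Cebpb had log2 fold changes of -0.12 and -0.44 with wide spread (adjusted p = 0.627 and 0.125, edgeR). With the replicate block the value for Cebpb was -0.53 (adjusted p = 6.99e-07, edgeR), without ponatinib replicate 1 it was -0.65 (adjusted p = 0.0374), and with no filter -0.43 (adjusted p = 1.09e-06). For CEBPB, leaving out the ponatinib replicate 1 of MDA-MB-231 gave -0.37 (adjusted p = 0.047, edgeR).

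Genes of mRNA decay, which act on AU-rich messages such as CSF2 and CSF3, were mostly lower or not called. In MDA-MB-231, 16 of 28 tested were lower and 3 higher (57.1% and 10.7%, median -0.30), beside 26.8% and 27.2% of all genes, and in 4T1, 18 of 29 were lower and 3 higher (62.1% and 10.3%, median -0.32), beside 29.4% and 29.5%. The count of 18 was 11 with total counts and 11 without DMSO replicate 2 of 4T1. Lower calls over all 4T1 genes also went down with total counts, from 3909 to 2935. ZFP36, a decay factor known to bind CSF2 mRNA, had a log2 fold change of -0.11 in MDA-MB-231 (adjusted p = 0.513, edgeR), and Zfp36 fell by 0.25 in 4T1 (adjusted p = 0.0259, edgeR). The latter call was lost with total counts (adjusted p = 0.199) and without DMSO replicates 1 or 2 or ponatinib replicates 2 or 3 (adjusted p = 0.054 to 0.123, edgeR). ELAVL1, a stabilizing protein of AU-rich messages, fell from 235 to 142 CPM in MDA-MB-231 (log2 -0.73, adjusted p = 6.66e-06, edgeR), and Elavl1 in 4T1 had -0.18 (adjusted p = 0.0573, and 0.0227 with the replicate block). Without DMSO replicate 1 of 4T1 its value was -0.24 (adjusted p = 0.0155, edgeR), and with DESeq2's size factors -0.19 (adjusted p = 0.0478).

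AGO2, the slicer of RNA silencing, fell by 1.32 and Ago2 by 0.89, and ZC3H12C, a member of the regnase family, fell by 0.81 in MDA-MB-231 (log2, edgeR). TIA1, which represses translation of AU-rich messages, and XRN1, the main exonuclease from the 5′ end, rose by 0.98 and 0.78 in MDA-MB-231. Zc3h12c and Xrn1 were called lower in 4T1 (log2 -0.76 and -0.30), and Tia1 was not called there (-0.18). In 4T1, Arid5a, which stabilizes cytokine mRNAs, fell from 128 to 61.2 CPM, and Zc3h12a, the nuclease regnase-1, and the deadenylase gene Parn rose by 0.73 and 0.33 (log2, edgeR). ARID5A and PARN were called the same way in MDA-MB-231 (log2 -0.78 and 0.42), whereas ZC3H12A was not called there (-0.14).

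The processing of the CSF1 protein includes furin-type cleavage, shedding from the membrane and addition of a glycosaminoglycan chain. Of its genes, 2 of 11 tested were lower and 1 higher in the human line (18.2% and 9.09%, beside 26.8% and 27.2% of all tested genes), and 3 of 11 were lower and 2 higher in the mouse line (27.3% and 18.2%, beside 29.4% and 29.5%). The protease gene FURIN fell by 0.29 and Furin by 0.60 (adjusted p = 0.00461 and 1.67e-05, edgeR), and the related Pcsk6 fell by 0.85 in 4T1. B3GALT6, which builds the linker of the chain, fell by 0.92 in MDA-MB-231, and B3gat3, of the same linker, rose by 0.52 in 4T1 (adjusted p = 0.000136 and 0.00046, edgeR). RHBDF1, a partner of the sheddase ADAM17, was the single higher gene in MDA-MB-231 (log2 0.32, adjusted p = 0.0103, edgeR), and it was not called without DMSO replicate 3 (adjusted p = 0.0643). The number of higher genes in MDA-MB-231 was 0 without DMSO replicate 3, 2 without ponatinib replicate 1, 2 with no filter and 3 with the replicate block. In 4T1 it was 1 without DMSO replicate 2, DMSO replicate 3 or ponatinib replicate 1. The shares of all tested genes above belong to the main fits, and these counts are not read against them.

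Across the 6 pathway lists, 116 genes were tested in both lines, and 26 of them were lower in both, 11 higher in both, 3 lower in MDA-MB-231 and higher in 4T1, and 8 the reverse. The same counts were not made over all genes, so these are a description and not a result about the lists. The ponatinib effect differed between the lines for 63 of 131 listed genes (48.1%) in the joint fit (edgeR, adjusted p-value under 0.05), beside 41.9% of all 12494 genes. Of the genes called in opposite directions, the interleukin gene IL23A rose from 33 to 122 counts in MDA-MB-231 while Il23a fell from 491 to 23 counts in 4T1 (log2 1.78 and -4.48). NFKBIE and the SRC family kinase gene LYN fell by 0.49 and 0.42 in MDA-MB-231, where Nfkbie and Lyn rose by 1.61 and 0.50 in 4T1 (adjusted p = 0.00447, 0.00636, 3.01e-08 and 0.00174, edgeR). LYN was not called with total counts (adjusted p = 0.0523).

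**Figure D4:**
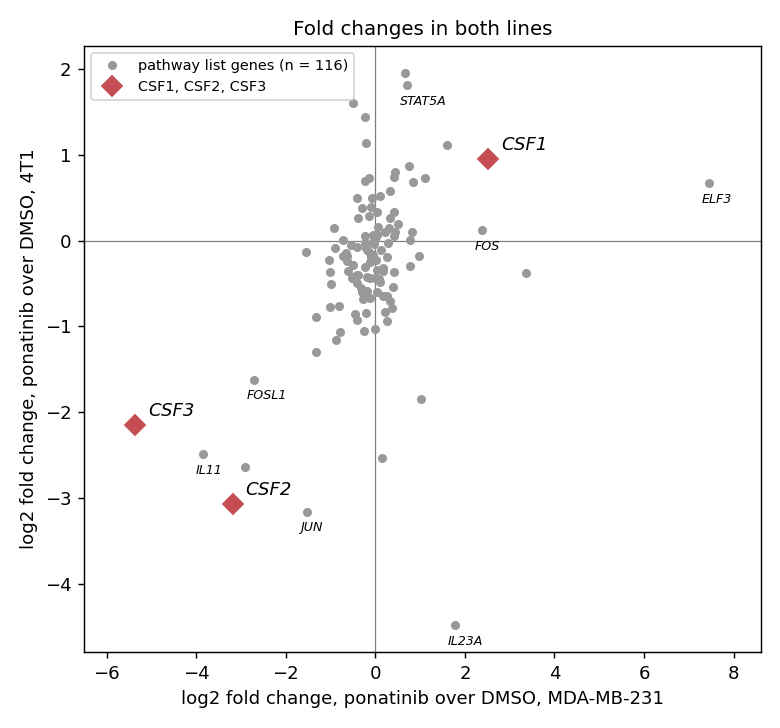
Log2 fold change (ponatinib over DMSO) in MDA-MB-231 (horizontal) and 4T1 (vertical) of CSF1, CSF2 and CSF3 (diamonds) and of the 116 pathway list genes tested in both lines (circles). CSF1 lies at 2.52 and 0.95, CSF2 at -3.18 and -3.07 and CSF3 at -5.36 and -2.15, while most listed genes lie near the origin.

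When total counts replaced TMM, the median over all tested genes moved to 0.11 (MDA-MB-231) and 0.12 (4T1) on the log2 scale, and in 4T1 the higher genes made up 62.3% of the calls instead of 50.1%. Under that scaling CSF1 and Csf1 were at 2.62 and 1.07, and no setting tried changed the direction of any of the 6 genes. In the mouse annotation Csf1, Csf2 and Csf3 each overlap a long noncoding gene on the other strand (Gm40121, Gm57329 and Gm38985) that has no identifier in the count tables, and the strand setting of the counting is not given in the sources used here, so reads of these genes cannot be told apart.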

How the data were processed

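RNA-seq libraries from MDA-MB-231 and 4T1 cells were grouped by their labels. According to the methods, the authors removed adapters and poly-N reads, used HISAT2 for alignment to hg38 (human) or GRCm39 (mouse), and obtained gene counts through HTSeq. What they deposited are these raw counts, and versions, annotation and strand setting are not given in the sources used here. Of 63677 human and 47729 mouse identifiers, 52181 and 43465 were matched to GENCODE v44 and vM39, with 99.3% and 99.8% of the counts.

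Differences were fitted over all genes of a line by the quasi-likelihood test of edgeR 4.0.16 under R 4.3.3, after filterByExpr and TMM scaling, and called at a Benjamini-Hochberg adjusted p-value under 0.05, and the difference between lines as an interaction over 12494 genes of shared symbol. CPM and RPKM were computed here. The fits were tested on simulated data. The common biological coefficient of variation was 0.099 and 0.0869. No library was a copy of another (chi-square per gene 2.86 to 14.7 between replicates). Deviations of same-numbered libraries correlated at 0.345, 0.111 and 0.133 for the human line and at 0.213, 0.119 and 0.115 for the mouse line. The labels do not say whether replicate numbers pair samples. The main fits used no pairing, and a replicate block was run as an alternative.

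The members and all gene lists were chosen with earlier results of these data known. Named genes are the receptors, the called neighbours within 250 kb, up to 2 called genes per list, line and direction with the largest change (at least 10 CPM in the higher group, groups apart), NFKB1, RELA, NFKBIA, JUN, FOS, FOSL1, CEBPB, ZFP36 and ELAVL1, up to 4 genes called in opposite directions and the 3 nearest patterns per member. Values of 1 gene named by this rule are left out here. Individual markers, IL3, Psmd3 and the genes described only in passing were chosen after their values were seen. Alternatives were DESeq2 1.42.0, its size factors, total counts, a minimum of 10 counts per library or no filter, a replicate block, each replicate left out, other lengths, window, prior count (0.5 for 2) and likeness. With 3 libraries per group, an exact permutation test cannot go below 0.1. The mouse symbols Kitl and Flt3l of the cytokine list were corrected once the files were open.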

Additional observations from a re-analysis of the deposited data

Results flagged for a closer look

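Among the named pathway genes reported here, 25 had a ponatinib effect that differed between MDA-MB-231 and 4T1 by the interaction test of edgeR (adjusted p-value under 0.05 over 12494 genes, of which 41.9% passed). The naming rule favoured genes with large changes in a line, and it took IL23A, FOSB, NFKBIE and LYN because their calls were in opposite directions. The count is therefore a description and is not read against that share. Values are the log2 fold change in MDA-MB-231 minus that in 4T1.

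Of the cytokine genes, the difference was -4.28 for CCL2 and -4.20 for IL1B, which were below the filter of MDA-MB-231 and of 4T1, respectively, when each line was fitted alone. It was 6.33 for IL23A and 3.83 for IL34, the latter from 4 and 48 counts in the DMSO and ponatinib libraries of MDA-MB-231. The receptor gene CSF2RA was at 2.92, with 5 and 1 counts in the DMSO and ponatinib libraries of 4T1, where it did not pass the filter alone. In the receptor signaling list, PIM1 and SOCS2 were at 1.23 and 0.87, and STAT5A, LYN and GRB2 at -1.03, -0.85 and -0.37.

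Among the promoter regulators, ELF3 was at 6.85, and the AP-1 genes FOSB, FOS and JUN at 2.96, 2.33 and 1.70, whereas FOSL1 was at -1.03. Of the named NF-κB and NFAT genes, NFKBIE was at -2.03, TNFAIP3 at -1.34, NFATC2 at -1.28 and NFKB1 at -0.66, while NFATC4, NFATC1 and REL, listed genes added after their values were seen, were at 2.19, 0.84 and 0.78 (adjusted p = 0.000205, 0.00341 and 0.0398, edgeR). Of the mRNA decay genes, TIA1 and XRN1 were at 1.23 and 1.15, and ZC3H12A and ELAVL1 at -0.79 and -0.47. Of the CSF1 processing genes, B3GALT6 was at -1.01 and FURIN at 0.37. The adjusted p-values ran from 4.26e-12 for ELF3 to 0.0474 for CSF2RA (edgeR's quasi-likelihood test).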

How the results depend on the processing

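All members kept their direction in every setting that gave a value; CSF3 had none with at least 10 counts in every library, which it did not reach. The log2 fold changes ranged from 2.48 to 2.62 for CSF1, -3.41 to -2.92 for CSF2, -5.69 to -5.21 for CSF3, 0.91 to 1.07 for Csf1, -3.15 to -2.95 for Csf2 and -2.27 to -2.02 for Csf3. With total counts, CSF1 was at 2.62 and Csf1 at 1.07 (84.1 RPKM with DMSO), 3 neighbours were lower in MDA-MB-231, 12 were higher in 4T1, and 11 decay genes were lower in 4T1. Without a filter, 2 CSF1 processing genes were higher in MDA-MB-231. With at least 10 counts in every library, MDA-MB-231 had 1 higher receptor gene and 2 higher cytokine genes, and 4T1 had 3 lower cytokine genes, since fewer genes were tested. The replicate block gave 14 lower receptor signaling genes and 3 higher CSF1 processing genes in MDA-MB-231, and it added calls for Cebpb and Elavl1. It changed no other call of a named gene and moved no other count by over 1.5 times. Counts of calls over all genes of a line moved by no more than 1.5 times in any setting. Within 100 kb, 1 neighbour was lower in MDA-MB-231, and 1 was lower and 1 higher in 4T1. With the longest transcript, CSF1, CSF3 and Csf1 were at 17.3, 18.4 and 123 RPKM with DMSO.

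Leaving out each replicate gave 0 to 2 higher CSF1 processing genes for the human line and 1 to 2 for the mouse line, 3 to 6 lower neighbours in MDA-MB-231, 11 to 19 lower decay genes in 4T1, and -5.69 to -5.21 for CSF3 in MDA-MB-231. The difference between the lines ranged from -3.47 to -2.99 for CSF3 and from -0.27 to 0.22 for CSF2, which was also at 0.14. Changes of sign among named genes were all near 0 and not called: CEBPB at 0.01 and 0.05 without DMSO or ponatinib replicate 3 (range -0.37 to 0.05), Fos at 0.00 without ponatinib replicate 1 (up to 0.21 without ponatinib replicate 2), and Nfkb1 at 0.00 with DESeq2 or its size factors and at -0.01, -0.01 and -0.05 without DMSO replicate 2, DMSO replicate 3 or ponatinib replicate 1. Of 1002 values of named genes under alternatives, 966 kept their direction and side of the threshold. P4HA2 and RAPGEFL1, neighbours of CSF2 and CSF3, lost their calls in 6 settings each. The cause of these shifts was not tested. Depth limits CSF3 with ponatinib in MDA-MB-231 (37 counts) and the receptors.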
